A study of Mus musculus with 6 samples.

Results

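Retinol uptake, storage and binding were followed through 8 genes chosen by symbol, namely Rbp4, Stra6, Lrat, Crabp1, Crabp2, Bco1, Retsat and Dhrs3. Of these, 7 genes with 10 transcripts had rows in an expression table of 14000 genes and 27120 transcripts, and no value of Crabp2 was analysed here. The table came from polyadenylated testis RNA of 6 wild-type male C57BL/6N mice, 3 per group, and gave FPKM, a fragment count divided by transcript length and library size, so that levels of different genes can be compared per length. Both groups carry the label of high-fat diet with CdCl2, and their names were read through the study's design. H+H+Cd males were F2 mice whose father and grandfather had both been on a high-fat diet (HFD). H+Cd males were F1 mice whose father alone had been on it. The first HFD generation ate it from week 5 to week 15 of life and the next for 10 weeks, the females they mated with were normal, and all 6 males drank CdCl2, a testicular toxicant, for 10 weeks before their testes were taken at 15 weeks of age. Generation and number of paternal HFD generations (2 in H+H+Cd, 1 in H+Cd) cannot be told apart in this design, and no mice without cadmium or without paternal HFD were analysed here. Whole testis was sequenced, so fewer cells of a type and less RNA per cell cannot be told apart.

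Vitamin A reaches the testis as retinol bound to RBP4, a plasma carrier made mainly in the liver. STRA6 is the membrane receptor that takes retinol from RBP4 into cells, LRAT esterifies it for storage, and BCO1 cleaves dietary beta-carotene into retinal. DHRS3 reduces retinal back to retinol, RETSAT saturates a double bond of retinol, and CRABP1 and CRABP2 bind retinoic acid in the cytosol. In the seminiferous tubule, retinoic acid is the signal for spermatogonia to differentiate and to enter meiosis, and Sertoli cells supply much of it.

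None of the 7 genes passed the test of H+H+Cd testes against H+Cd testes. Bco1 had the highest level, at 15.5 ± 2.88 FPKM in H+H+Cd and 11.8 ± 1.86 FPKM in H+Cd (SD, n = 3 each), and the groups overlapped. Stra6, at 0.812 ± 0.173 FPKM in H+H+Cd and 0.562 ± 0.0603 FPKM in H+Cd, was the 1 gene whose groups did not overlap. Rbp4 had the widest spread, from 1.84 to 7.24 FPKM over the 6 testes, with both groups spanning much of that range. Crabp1, Retsat, Dhrs3 and Lrat had ratios of group means, H+H+Cd over H+Cd, between 0.970 and 1.05.

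The test was limma on log2(FPKM + 1) over 13769 genes with a mean above 0.5 FPKM in at least 1 group, and all 7 genes passed that filter. At an adjusted p of 0.05, 0 of 7 members were called, against 1 gene, or 0.00726%, of all genes tested, and an adjusted F-test also called 0 of 7. At an unadjusted limma p under 0.05, 0 of 7 members were called, against 11.9% of all genes. The study's thresholds of a p under 0.05 and a fold above 1.2, applied here to an F-test p without adjustment, took 0 of 7 members and 6.01% of all genes. The fold was positive in 5 of 7 members and in 50.2% of all genes tested. The median log2 fold change of the 7 members was 0.083, beside a median of 0.00069 over all genes. Groups without overlap and higher in H+H+Cd occurred in 1 of 7 members and in 8.34% of all genes, and 1 of 7 is no result about these genes as a group.

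**Figure D1:**
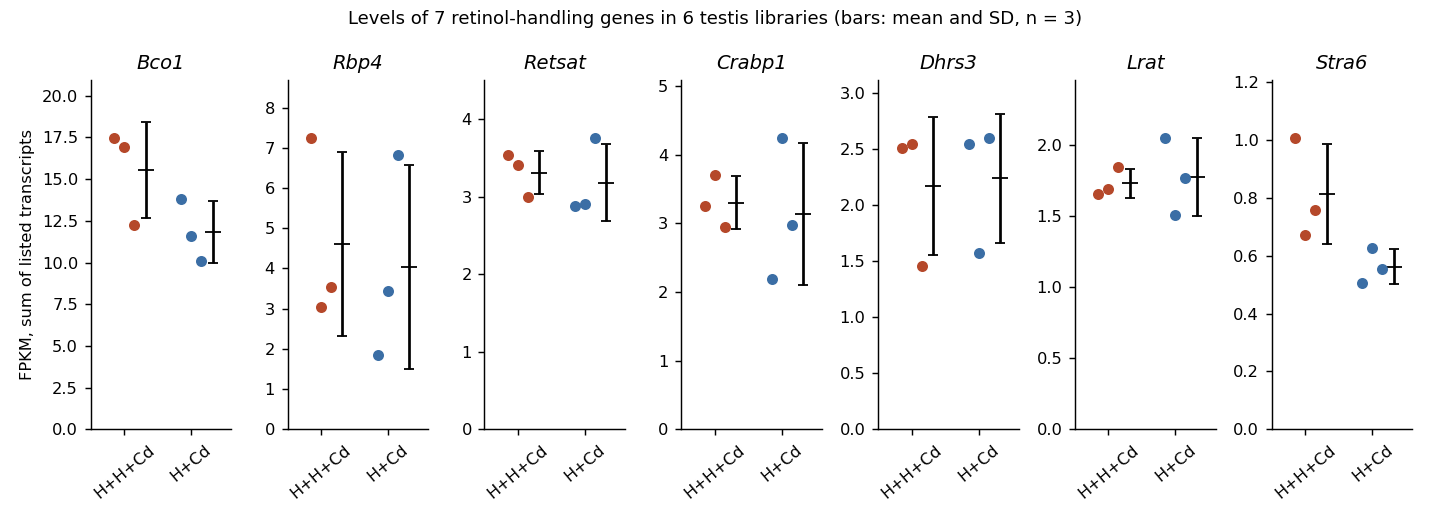
FPKM of each of the 7 genes (sum of listed transcripts, linear axes from 0) in the 3 H+H+Cd testes (red) and the 3 H+Cd testes (blue), with the mean and SD of each group in black. Stra6 alone has separate groups, and Rbp4 spreads from 1.84 to 7.24 FPKM.

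The 6 libraries had summed FPKM between 382815 and 397147, and the read depth behind the values is unknown. Transcripts of the mitochondrial chromosome took 4.24%, 4.08% and 4.68% of that sum in H+H+Cd and 3.84%, 3.71% and 3.04% in H+Cd, so the groups did not overlap. Markers of the testis were present in all of them, with 11 Sertoli cell genes summing to 148 to 181 FPKM in H+H+Cd and 153 to 202 FPKM in H+Cd, and 8 spermatid genes summing to at least 12032 FPKM in each library. On 3 other lists the sums did not overlap between groups. They did overlap on the lists of peritubular myoid cells, macrophages and adipocytes, which were also looked at. Among single genes tested, 8.34% had groups apart with H+H+Cd higher, and no such share was worked out for sums of lists. For 8 spermatogonial genes they were 92.2 to 98.3 FPKM in H+H+Cd against 101 to 105 FPKM in H+Cd. For 8 spermatocyte genes they were 799 to 855 FPKM in H+H+Cd against 878 to 914 FPKM in H+Cd. For 4 endothelial genes they were 4.23 to 4.72 FPKM in H+H+Cd against 3.33 to 4.004 FPKM in H+Cd. Single genes made up much of the germ cell gaps. Dazl, by far the most abundant gene on the spermatogonial list, had means of 63.1 FPKM in H+H+Cd and 70.3 FPKM in H+Cd. The next, Uchl1, had means of 12.7 FPKM in H+H+Cd and 12.2 FPKM in H+Cd, so that sum mostly follows Dazl. Sycp3, a spermatocyte marker, had means of 183 FPKM in H+H+Cd and 227 FPKM in H+Cd. The fold was positive in 2 of the 8 spermatogonial genes, 3 of the 8 spermatocyte genes and all 4 endothelial genes. The 8 Leydig cell genes summed to 271 FPKM in H+Cd replicate 2 and to 489.7 to 591 FPKM in the other 5 libraries. Most of that gap was Insl3, with 45.5 FPKM in H+Cd replicate 2 and 235 to 276 FPKM in the other 5 libraries. Cyp11a1, Hsd17b3 and Lhcgr were also lowest in H+Cd replicate 2, while Cyp17a1 and Hsd3b1 lay within the range of the other libraries. H+H+Cd replicate 1 stood apart through genes of other tissues. Of 12 epididymal genes listed, 4 were in the table. They summed to 99.9 FPKM there and to 3.15 to 3.79 FPKM in the other 5 libraries. Crisp1 alone had 86.1 FPKM there, while Rnase10 was lowest there, at 2.82 FPKM against 2.84 to 3.79 FPKM elsewhere. The 12 trophoblast and placental genes in the table summed to 224 FPKM there and to 10.5 to 29.3 FPKM elsewhere. The 8 liver and yolk sac genes in the table summed to 260.2, 79.1 and 41.6 FPKM in H+H+Cd replicates 1, 2 and 3, and to 33.0, 4.85 and 281 FPKM in H+Cd replicates 1, 2 and 3. No marker on these 3 lists was at 0 in all 6 libraries, but Adam7, an epididymal gene, was listed at 0 in all except H+H+Cd replicate 1.

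In both libraries with the high liver marker sums, Rbp4, the plasma retinol carrier, was also highest. Rbp4 (ENSMUSG00000024990) lies on the minus strand of chromosome 19 from 38116629 to 38125281 (mm10). It had 7.24, 3.04 and 3.54 FPKM in H+H+Cd replicates 1, 2 and 3, and 1.84, 3.44 and 6.82 FPKM in H+Cd replicates 1, 2 and 3. The groups overlapped over most of their range, with the highest value in H+H+Cd and the second highest and the lowest in H+Cd. The log2 fold change was 0.21 (SE 0.43, 95% confidence interval -0.83 to 1.25, limma adjusted p = 0.867). Albumin (Alb), the main plasma protein of the liver, was highest in the same 2 libraries, with 118, 35.7 and 20.0 FPKM in H+H+Cd and 15.5, 0.849 and 135 FPKM in H+Cd. So was Ttr, which encodes the plasma partner of RBP4. It had 7.61, 2.31 and 0.657 FPKM in H+H+Cd and 1.48, 0.253 and 9.84 FPKM in H+Cd. Alb and Ttr are both on the liver and yolk sac list, so their high values are part of its sums. The order of the other 4 libraries differed, H+Cd replicate 2 having the lowest Alb and a middle value of Rbp4. The part of liver-type RNA in the Rbp4 values was not tested. Without both H+H+Cd replicate 1 and H+Cd replicate 3, a choice made after the data were seen, the log2 fold change of Rbp4 was 0.27 (limma adjusted p = 0.854). The spread of Rbp4 was wider than that of 94.2% of 4144 genes of like level.

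**Figure D2:**
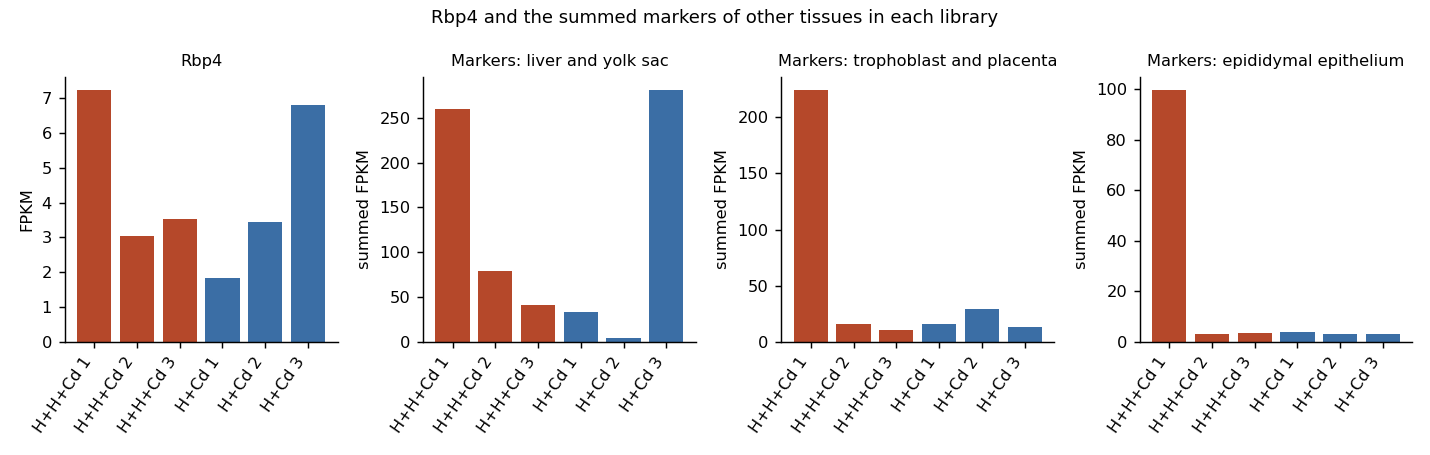
FPKM of Rbp4 and the summed FPKM of 3 lists of markers of other tissues in each library, H+H+Cd replicates in red and H+Cd replicates in blue. Rbp4 and the liver and yolk sac list are both highest in H+H+Cd replicate 1 and H+Cd replicate 3, while the trophoblast and epididymal lists are high in H+H+Cd replicate 1 alone.

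Rbp4 was listed with 2 transcripts that start 420 bases apart and differ in the beginning of the coding sequence. Rbp4-201 (ENSMUST00000025951.12) has 735 coding bases without the stop codon, and Rbp4-202 (ENSMUST00000112335.2) has 603, all of which Rbp4-201 shares. The 132 coding bases of Rbp4-201 alone, or 44 codons, precede the start codon that Rbp4-202 uses. These lengths and the coding starts are from GENCODE M21 (mm10), where both IDs have a later version than the one given here. The coding starts are shown since the difference between libraries described next turns on them. Capitals mark the bases that Rbp4-201 alone holds, and the lower case is the first 30 coding bases of Rbp4-202. They lie between 38124600 and 38125068 on chromosome 19, minus strand.
Rbp4-201: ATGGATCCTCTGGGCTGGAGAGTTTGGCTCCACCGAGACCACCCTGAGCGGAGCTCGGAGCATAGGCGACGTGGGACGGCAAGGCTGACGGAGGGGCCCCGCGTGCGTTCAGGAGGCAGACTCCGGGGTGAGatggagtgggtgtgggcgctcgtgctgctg
Rbp4-202: atggagtgggtgtgggcgctcgtgctgctg

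The listed transcript differed from library to library within both groups. Rbp4-202, the form with the shorter coding sequence, had 7.24, 1.14 and 3.54 FPKM in H+H+Cd replicates 1, 2 and 3, and was listed at 0 in H+Cd replicate 1 with 3.44 and 6.82 FPKM in H+Cd replicates 2 and 3. Rbp4-201 had 1.90 FPKM in H+H+Cd replicate 2 and 1.84 FPKM in H+Cd replicate 1, and was listed at 0 in the other 4 libraries. So 4 libraries had only the short form, H+Cd replicate 1 only the long one, and H+H+Cd replicate 2 both, with 37.4% in Rbp4-202. Over 2890 genes with exactly 2 listed transcripts that were both tested, the share of the main transcript ranged by a median of 24.6 percentage points over the 6 libraries. For Rbp4 it ranged by 100 points, more than in 96.0% of those genes, which were not matched to Rbp4 in level. Whether the mice or the transcript estimates differ was not tested. The log2 fold change was 0.40 for Rbp4-202 (95% confidence interval -1.82 to 2.62) and 0.011 for Rbp4-201 (-1.53 to 1.55), so that neither was resolved. With a pseudocount of 0.1, the value of Rbp4-202 was 1.25 (limma adjusted p = 0.821).

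Stra6, the receptor for the RBP4-retinol complex, was the least abundant of the 7 genes with only 6.87% of all genes tested below it. It had 1.01, 0.672 and 0.758 FPKM in H+H+Cd replicates 1, 2 and 3, and 0.506, 0.625 and 0.555 FPKM in H+Cd replicates 1, 2 and 3. All 3 H+H+Cd testes lay above all 3 H+Cd testes, by a margin of 0.672 against 0.625 FPKM for the closest pair. The ratio of means was 1.44, and the log2 fold change of FPKM + 1 was 0.21 (SE 0.11, 95% confidence interval -0.059 to 0.48, limma adjusted p = 0.496). At this level the added 1 FPKM shrinks the fold, which was 0.45 on the log2 scale with a pseudocount of 0.1 and did not pass either. Without H+H+Cd replicate 1, the library with the high epididymal and placental sums, the log2 fold change was 0.13. The groups were likewise apart in the mitochondrial share and in the spermatogonial, spermatocyte and endothelial sums, whose part in the Stra6 values was not tested. Stra6 (ENSMUSG00000032327) spans 58063788 to 58153996 on the plus strand of chromosome 9. It has 14 annotated transcripts, and the 1 in the table, Stra6-214 (ENSMUST00000170397.7), starts at 58134075.

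Lrat, which makes the retinyl esters of the storage pool, was the steadiest member. It had 1.65, 1.69 and 1.85 FPKM in H+H+Cd testes, against 2.05, 1.50 and 1.77 FPKM in H+Cd testes. The H+H+Cd values lay inside the H+Cd range. H+H+Cd over H+Cd gave a log2 fold change of -0.020 (SE 0.11, 95% confidence interval -0.28 to 0.24). Its SD over the 6 libraries on the log2 scale was 0.0967, and only 13.5% of genes of like level had a smaller one. Lrat (ENSMUSG00000028003) lies on the minus strand of chromosome 3 from 82892579 to 82903973 and has 1 annotated transcript.

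Crabp1, a cytosolic protein that binds retinoic acid, had 3.26, 3.70 and 2.94 FPKM in H+H+Cd testes, against 2.19, 4.24 and 2.97 FPKM in H+Cd testes. The H+H+Cd values lay inside the wider H+Cd range. The log2 fold change was 0.083 (SE 0.19, 95% confidence interval -0.38 to 0.55). Crabp1 (ENSMUSG00000032291) lies on the plus strand of chromosome 9 from 54764748 to 54773110.

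Bco1, which feeds retinal into the pathway from carotenoids, stood clear of the other members, above all of them in each library and above 66.5% of all genes tested. It had 17.5, 16.9 and 12.2 FPKM in H+H+Cd replicates 1, 2 and 3, and 13.8, 11.6 and 10.1 FPKM in H+Cd replicates 1, 2 and 3. The groups overlapped through H+H+Cd replicate 3, which lay below H+Cd replicate 1. The log2 fold change was 0.36 (SE 0.17, 95% confidence interval -0.042 to 0.76, limma adjusted p = 0.451). It was 0.27 without H+H+Cd replicate 1, 0.51 without H+H+Cd replicate 3, and 0.17 without both H+H+Cd replicate 1 and H+Cd replicate 3. H+H+Cd replicate 1, with its high marker sums of other tissues, had the highest Bco1 as well as the highest Stra6, and the part of such RNA in either was not tested. Nor was the part of the mitochondrial share or of the germ cell and endothelial sums in the Bco1 values. The gene (ENSMUSG00000031845) lies on the plus strand of chromosome 8 from 117095854 to 117133720.

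The 2 listed transcripts of Bco1 share the first 1414 coding bases and then part. Bco1-203 (ENSMUST00000176860.1) has an extra exon of 205 bases before the last exon, so its coding sequence ends differently from that of Bco1-201 (ENSMUST00000034308.14). The last 30 shared coding bases are shown in lower case, followed in capitals by the first 90 of the 284 coding bases of Bco1-201 alone and of the 164 of Bco1-203 alone. Both stretches begin at 117130680 on chromosome 8.
Bco1-201: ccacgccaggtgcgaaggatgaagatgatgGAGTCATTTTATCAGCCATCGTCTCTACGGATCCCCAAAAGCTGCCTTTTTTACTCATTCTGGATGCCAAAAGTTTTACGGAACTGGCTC
Bco1-203: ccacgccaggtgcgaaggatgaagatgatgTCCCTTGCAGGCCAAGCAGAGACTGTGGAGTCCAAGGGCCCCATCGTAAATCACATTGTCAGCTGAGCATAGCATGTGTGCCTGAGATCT

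Bco1-201 carried 87.9% to 93.3% of the gene's FPKM in H+H+Cd and 91.6% to 99.0% in H+Cd. Bco1-203 had 1.72, 1.14 and 1.48 FPKM in H+H+Cd, against 1.16, 0.116 and 0.338 FPKM in H+Cd. The groups overlapped by the small margin of H+Cd replicate 1 over H+H+Cd replicate 2, and the other H+Cd values were lower. With a log2 fold change of 0.72 (SE 0.28, 95% confidence interval 0.019 to 1.42), this was the 1 of 10 member transcripts with an unadjusted limma p under 0.05, a level that 8.24% of 25322 transcripts reached. Its adjusted p was 0.600. The unadjusted p was 0.0753 in the F-test. It lay between 0.0640 and 0.121 in 5 of the 6 limma fits without 1 library, and was 0.00485 without H+Cd replicate 1. Without both H+H+Cd replicate 1 and H+Cd replicate 3, a choice made after the data were seen, the log2 fold change was 0.57 and the unadjusted limma p 0.243. With all 6 libraries, the unadjusted limma p was 0.0324 with the replicate number as a block and 0.0421 without a variance trend. It was 0.0440 after median-ratio rescaling, 0.0456 after quantile normalization, 0.0467 without the filter and 0.0550 with the filter at 1 FPKM. With a pseudocount of 0.1 the log2 fold change was 1.63 and the unadjusted limma p 0.0577. Over all member transcripts, 0 of 10 were called at an adjusted p of 0.05 by limma, against 0.13% of all transcripts, and the adjusted F-test also called 0 of 10. Stra6-214 was the 1 of 10 whose groups did not overlap with H+H+Cd higher, against 7.29% of all transcripts.

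**Figure D3:**
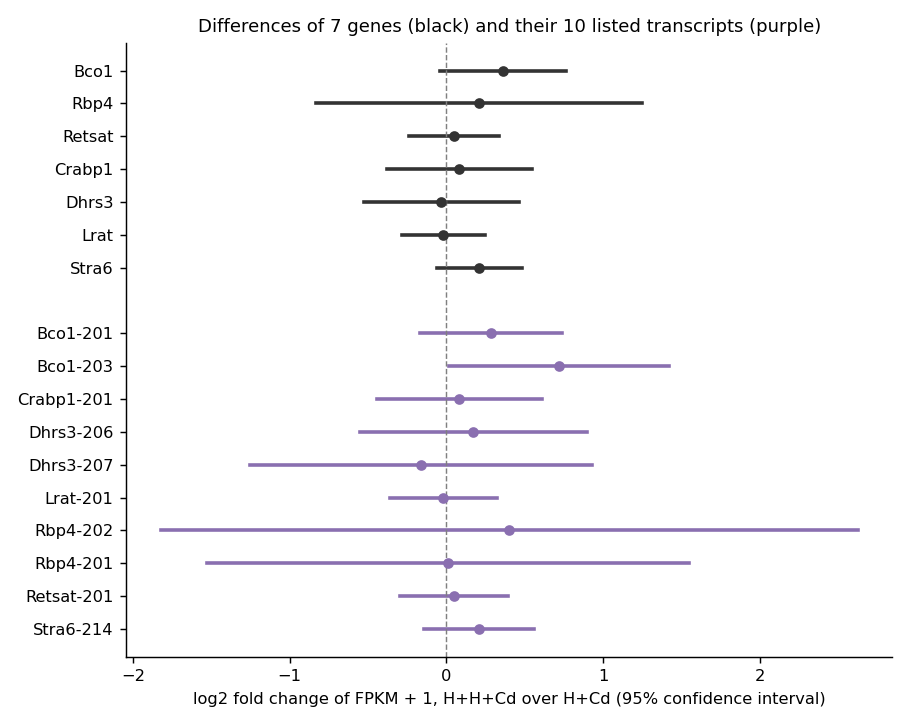
Log2 fold change of FPKM + 1, H+H+Cd over H+Cd, with limma's 95% confidence interval, for 7 genes (black) and 10 transcripts (purple). Only the interval of Bco1-203 (0.019 to 1.42) leaves out 0, and it is not corrected for the number of transcripts tested.

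Among the 13 RefSeq promoters found for 7 of the genes, only that of Bco1 held a spaced pair of the exact nuclear receptor half-site AGGTCA. That promoter is shown here. Its RefSeq start lies 11 bases from that of Bco1-201 (117095854), while Bco1-203 starts at 117095998. The search covered the 250 bases before each start (GRCm38.p6), on both strands, for AGGTCA, for AGTTCA, and for AGGTCA repeated in the same direction with 1, 2 or 5 bases between. The spacing of 1 is the kind that pairs of peroxisome proliferator-activated and retinoid X receptors bind, and those of 2 and 5 are the kinds that retinoic acid receptors bind with the same partner. The 1-base spacing was in 11 of 32851 promoters (0.0335%), Bco1 among them. The 2-base and 5-base spacings were each in 3 promoters (0.00913%) and in none of the members. Such exact pairs are so rare that finding none in 13 promoters says nothing about these genes. Pairs that hold AGTTCA were not searched. A single AGGTCA was in 1 of 13 member promoters, that of Bco1, against 14.0% of all promoters, and AGTTCA in 1 of 13, that of Retsat, against 11.8%. A match describes letters only and does not show that a receptor binds in these testes. The window is chr8:117095615-117095864, plus strand, with both half-sites in capitals, which read TGACCT because they lie on the opposite strand.
Bco1 promoter: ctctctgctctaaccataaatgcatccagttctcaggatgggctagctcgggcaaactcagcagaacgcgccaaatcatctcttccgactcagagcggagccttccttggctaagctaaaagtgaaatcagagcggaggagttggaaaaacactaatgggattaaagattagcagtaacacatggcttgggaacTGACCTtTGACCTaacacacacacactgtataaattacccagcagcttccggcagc

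Retsat and Dhrs3, enzymes that act on retinol and retinal, had nearly equal group means. Retsat had 3.53, 3.40 and 2.99 FPKM in H+H+Cd testes, against 2.88, 2.91 and 3.75 FPKM in H+Cd testes. The highest value and the lowest 2 were in H+Cd. A log2 fold change of 0.048 was fitted (SE 0.12, 95% confidence interval -0.24 to 0.33). Retsat (ENSMUSG00000056666) lies on the plus strand of chromosome 6 from 72598475 to 72608425. Dhrs3 had 2.50, 2.54 and 1.46 FPKM in H+H+Cd testes, against 2.54, 1.57 and 2.59 FPKM in H+Cd testes. In each group 2 testes lay close together between 2.50 and 2.59 FPKM and 1 was lower, namely H+H+Cd replicate 3 and H+Cd replicate 2. On the log2 scale the difference was -0.033 (SE 0.20, 95% confidence interval -0.53 to 0.46). Dhrs3 (ENSMUSG00000066026) lies on the plus strand of chromosome 4 from 144892827 to 144928209.

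Dhrs3 had another leading transcript in 1 library. Dhrs3-206 (ENSMUST00000154208.7) has 906 coding bases, the first 78 of which, 26 codons, are missing from Dhrs3-207 (ENSMUST00000171001.7), a form whose RNA starts 250 bases further upstream and uses a later start codon. The coding starts are shown with the bases of Dhrs3-206 alone in capitals and the first 30 coding bases of Dhrs3-207 in lower case. They lie between 144893515 and 144893622 on chromosome 4, plus strand.
Dhrs3-206: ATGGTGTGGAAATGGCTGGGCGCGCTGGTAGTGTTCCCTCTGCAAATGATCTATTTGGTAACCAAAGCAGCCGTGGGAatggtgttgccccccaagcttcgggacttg
Dhrs3-207: atggtgttgccccccaagcttcgggacttg

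Dhrs3-206 held 90.5%, 76.5% and 95.7% of the gene's FPKM in H+H+Cd replicates 1, 2 and 3, and 31.3%, 96.6% and 99.3% in H+Cd replicates 1, 2 and 3. H+Cd replicate 1 was thus the 1 library in which Dhrs3-207 exceeded Dhrs3-206, at 1.75 against 0.794 FPKM, while the sum of both there (2.54 FPKM) was like that of 3 other libraries. This is also the 1 library in which Rbp4-202 was listed at 0, and H+H+Cd replicate 2, where both Rbp4 forms were present, had the second highest share of Dhrs3-207 (23.5%). Bco1 had another order. The share of Bco1-203 was highest in H+H+Cd replicate 3 (12.1%), with 8.4% in H+Cd replicate 1 and 6.73% in H+H+Cd replicate 2. How often shares of 2 genes line up in this way was not tested. Neither Dhrs3 transcript was resolved, with a log2 fold change of 0.17 for Dhrs3-206 (95% confidence interval -0.55 to 0.89) and -0.16 for Dhrs3-207 (-1.26 to 0.93). In Dhrs3 the share of the main transcript ranged by 68.0 points, more than in 80.8% of genes with 2 listed transcripts, and in Bco1 by 11.1 points, more than in 28.2%. Those genes were not matched in level.

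**Figure D4:**
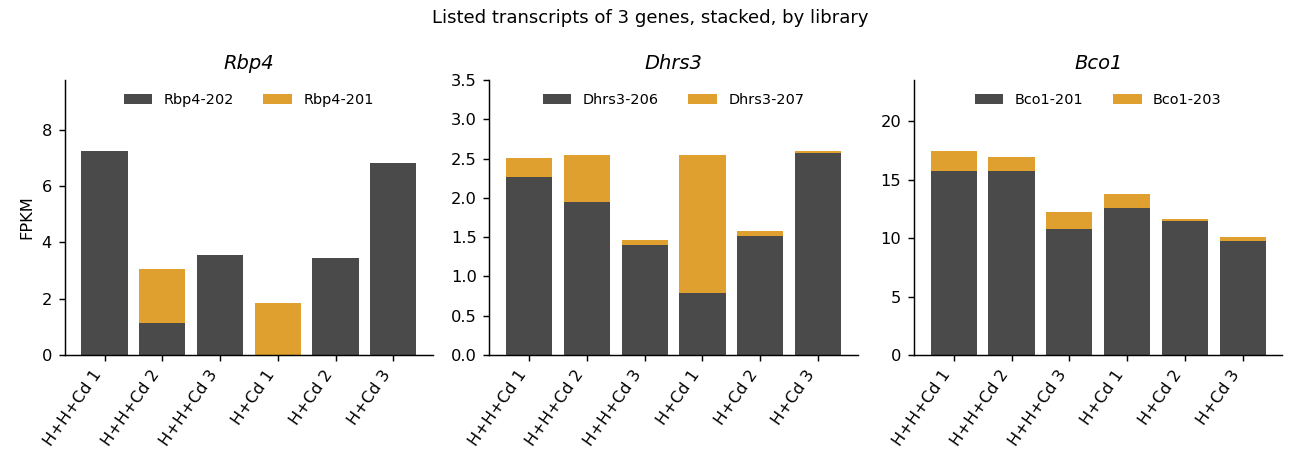
FPKM of the listed transcripts of Rbp4, Dhrs3 and Bco1 stacked for each library, with the more abundant transcript in grey and the other in orange (linear axes from 0). H+Cd replicate 1 has only Rbp4-201 and mostly Dhrs3-207, and Bco1-201 leads in all 6 libraries.

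Ordered by mean FPKM over the 6 testes, the genes ran from Bco1 (13.7) through Rbp4 (4.32), Retsat (3.24), Crabp1 (3.22), Dhrs3 (2.20) and Lrat (1.75) to Stra6 (0.687). Bco1 and Stra6 were separated from their neighbours in all 6 libraries. The others had overlapping ranges, with Rbp4 above Retsat in 4 of 6 libraries and Retsat above Crabp1 in 4 of 6. For the 3 members with the largest SD of log2(FPKM + 1), the genes with the most similar profile were found by the root mean square distance of centred log2 values over the 6 libraries. Metap1d (0.171) and Vps33b (0.196) were nearest to Rbp4, Slx4ip (0.0482) and Msantd3 (0.0533) to Bco1, and Ier2 (0.0569) and Tspan17 (0.0604) to Dhrs3. These are descriptions over 6 values each, picked from 13769 genes.

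The other genes of the retinoid pathway did not pass either. Of 69 listed by role, 52 were in the table and tested, 35 with positive and 17 with negative fold changes, and 0 were called by limma. Their median log2 fold change was 0.089. An unadjusted limma p under 0.05 was reached by 3 that were higher and 3 that were lower in H+H+Cd, beside 11.9% of all genes tested. Among 14 further genes of uptake and transfer, 10 were positive and 4 negative. Lipe, a lipase that also releases retinol from its esters, was the most abundant of them, at 112, 109 and 118 FPKM in H+H+Cd and 116, 125 and 107 FPKM in H+Cd, followed by the lipoprotein receptor Scarb1 with a log2 fold change of 0.11. Dgat1, which can esterify retinol as LRAT does, had 10.7, 9.56 and 11.1 FPKM in H+H+Cd, all below the 14.6, 11.5 and 12.7 FPKM in H+Cd, with a log2 fold change of -0.28 (limma adjusted p = 0.399). Rbp7, a retinol-binding protein, had a log2 fold change of -0.32 (limma adjusted p = 0.504).

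Genes that oxidise retinol or reduce retinal were negative in 8 of 13, with a median log2 fold change of -0.094. Rdh11, the most abundant retinol dehydrogenase listed, had 88.9, 86.3 and 92.7 FPKM in H+H+Cd, all below the 97.6, 94.5 and 93.9 FPKM in H+Cd, a log2 fold change of -0.094. The aldo-keto reductase Akr1b3 had 0.11, Cbr4 -0.22 and the dehydrogenase Adh4 -0.48 on the same scale, with limma adjusted p of 0.710, 0.415 and 0.358. In the synthesis list 4 of 5 were positive, with log2 fold changes of 0.060 and 0.082 for Aldh1a1 and Aldh1a2, and of 0.24 and 0.27 for Aldh1a7 and Aldh8a1. The negative one, named after its values were seen, was Aldh1a3 at -0.16 (limma adjusted p = 0.673). All 3 genes of breakdown listed were positive, with 0.30 for Cyp26b1, 0.13 for Cyp26a1 and 0.084 for Cyp2s1. Receptors, cofactors and responding genes were positive in 13 of 17, beside 50.2% of all genes tested. Among the positive ones were Ncor1 (0.17), Rec8 (0.13) and Rxra (0.35). The 4 negative ones, named after their values were seen, were Stra8 (-0.050), Tgm2 (-0.018), Rarres1 (-0.092) and Rarg (-0.12). Rarres2, which encodes chemerin and is named for its response to a synthetic retinoid, had 7.58, 6.31 and 5.44 FPKM in H+H+Cd, against 3.45, 3.99 and 2.89 FPKM in H+Cd. Its groups were well apart, the fitted log2 difference being 0.74 (0.39 to 1.10 at 95% confidence), but it did not pass over all genes (limma adjusted p = 0.329).

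**Figure D5:**
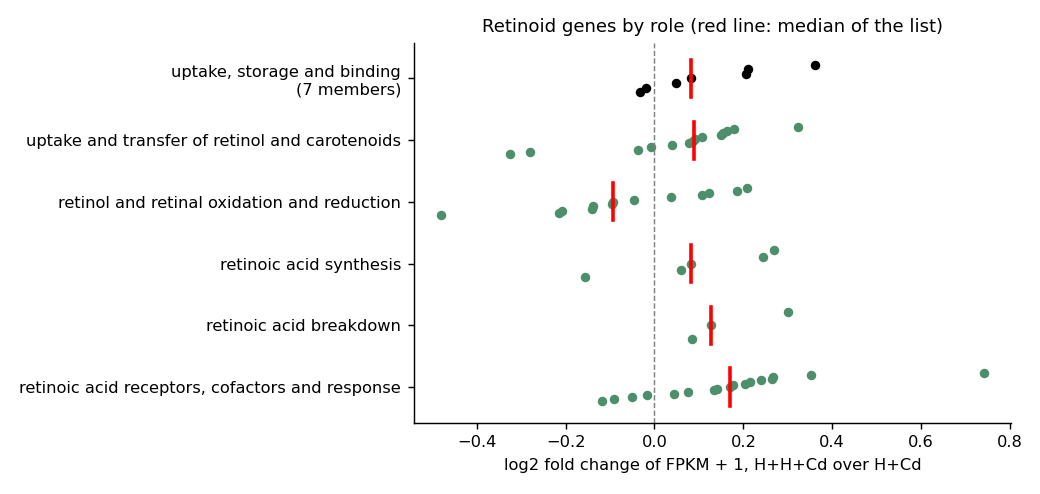
Log2 fold change of FPKM + 1, H+H+Cd over H+Cd, for each of the 7 members (black) and for 52 other retinoid genes by role (green), 1 point a gene, with the median of each list in red. The medians lie between -0.094 and 0.17, and Rarres2 (0.74) lies farthest from 0.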

How the data were processed

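The authors made stranded libraries from poly(A) RNA of each testis, sequenced them on an Illumina instrument, and obtained transcript abundances with StringTie and Ballgown. The deposited values are FPKM per transcript, and the submitters' notes name the build mm10. The aligner, like each software version, is not given in the sources used here. Groups and replicate numbers came from the sample titles, and all 6 libraries entered each test. The methods take 1 male per litter, so replicates are separate mice.

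IDs without version were matched to GENCODE M21, which found 27018 of 27120 (99.6%). Both Rbp4 transcripts have a later version there. The FPKM of a gene is the sum over its listed transcripts, which are 10 of the 36 annotated for the 7 genes. limma 3.58.1 (R 4.3.3, two-sided, with a variance trend and group as the only factor) was fitted on log2(FPKM + 1) over all features with a mean above 0.5 FPKM in at least 1 group, with Benjamini-Hochberg adjustment. Fold changes on this scale understate those of low genes. The fit was tested on simulated data. Genes of like level have a mean between 0.5 and 2 times that of the member. Tables were made with Python 3.11.15 and pandas 2.3.3. Promoter sequences came from RefSeq (GRCm38.p6), which matched 7 of the 8 genes.

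The genes, the lists of pathway genes and of markers, and the alternatives were chosen with earlier results of these data known. Beside the members, the 2 most abundant genes and the 2 of smallest p in each pathway list are named. So are the 2 nearest genes in profile for the 3 members with the largest SD of log2(FPKM + 1). The negative genes of the synthesis and receptor lists, and single marker genes, were named after their values were seen. Alternatives changed the pseudocount, the filter, the scaling, the test, the block, the libraries used, or took only the main transcript of a gene.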

Additional observations from a re-analysis of the deposited data

How the results depend on the processing

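No member that was tested passed under any alternative. All 7 genes and 10 transcripts were tested, except that the filter at a mean above 1 FPKM left 6 genes (without Stra6) and 7 transcripts, and that Dhrs3-207 fell below the filter without H+Cd replicate 1, which left 9 transcripts. The lowest adjusted p was 0.291 for a gene and 0.202 for a transcript, both without H+Cd replicate 1. Leaving out each library in turn, the log2 fold change kept its sign for Bco1 (0.26 to 0.51) and Stra6 (0.13 to 0.27). It crossed 0 for Rbp4 (-0.14 to 0.59), Retsat (-0.0032 to 0.14), Crabp1 (-0.088 to 0.27), Dhrs3 (-0.19 to 0.14) and Lrat (-0.091 to 0.051), and for the transcripts Rbp4-201 (-0.50 to 0.51), Rbp4-202 (-0.45 to 1.03) and Dhrs3-206 (-0.076 to 0.42). The same ranges hold for Retsat-201, Crabp1-201 and Lrat-201, the only listed transcripts of their genes. With the main transcript alone, Dhrs3 had 0.17 in place of -0.033. With a pseudocount of 0.1, Dhrs3-207 had 0.066, and without the 2 libraries of highest liver marker sums (added after the data were seen) Lrat had 0.0017. The cause was not tested. With the replicate number as a block, 0 of 7 genes and 0 of 10 transcripts passed (lowest adjusted p 0.608 and 0.767). The numbers do not pair the mice (correlations of deviations of same-numbered libraries over genes from -0.163 to -0.00177). Over all features, adjusted calls ran from 0 to 13 for genes (1 as reported) and from 0 to 86 for transcripts (33 as reported, 1 with the block, 86 without H+Cd replicate 1). The study's thresholds, without adjustment, took 828 genes and 1501 transcripts. Rescaling moved the median log2 fold change of all genes by -0.012 at most. The read depth is unknown, so precision rests on 3 mice per group.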
